A study of Mus musculus with 6 samples.

Results

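Expression of genes for eicosanoid synthesis and epoxide hydrolysis was measured in the visceral (epididymal) fat pads of obese mice, called eWAT below. The set holds 10 genes: the epoxide hydrolases Ephx1 and Ephx2, the prostaglandin synthesis genes Ptgs1, Ptgs2, Ptges, Ptgis and Hpgds, and the leukotriene synthesis genes Alox5, Alox5ap and Ltc4s. They were chosen by name with group differences of these same arrays already known, that of Ephx2 among them. Each gene was represented by its brightest probe set over the arrays among those annotated with 1 gene symbol only, and each of these genes had 1 such probe set. Of the 10 genes, 9 were measured, out of 19938 genes in all, and 8 were bright enough to be tested among 11963 tested genes. Ptgs1 had no probe set in the annotation used here, and Ptgs2 lay below the limit for dim genes.

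All mice were male C57BL6/J and received a high-fat diet (HFD) that started when they were 6 weeks old and lasted 12 weeks. After the diet had begun, a recombinant adeno-associated virus (rAAV) was injected into their eWAT, and the engineered serotype Rec2 was used. In the rAAV-Lmo3 group the virus delivered Lmo3, a LIM-domain transcriptional cofactor, and in the rAAV-YFP group it delivered yellow fluorescent protein. Each group held 3 Affymetrix mouse Gene ST arrays, with pooled RNA of 2 mice on each, so the spread given below is that between pools. Both transgenes were driven by the chicken beta-actin promoter with the CMV enhancer, which is active in many cell types, so expression was not limited to adipocytes by the promoter. The authors reported strong Lmo3 mRNA in rAAV-Lmo3 eWAT by qPCR and LMO3 protein in its mature adipocytes by confocal imaging. The sample titles name YFP as the control transgene, whereas another field of the same labels names LacZ, and the titles were followed.

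Eicosanoids are short-lived lipid mediators made from arachidonic acid that phospholipases release from membranes. Cyclooxygenases turn it into prostaglandin H2, from which terminal synthases make the single prostaglandins and prostacyclin. In leukotriene synthesis, 5-lipoxygenase and its partner protein FLAP make leukotriene A4, which a conjugating enzyme joins to glutathione. Cytochrome P450 epoxygenases form fatty acid epoxides, and epoxide hydrolases turn these into diols. In fat, prostaglandin E2 acting through its EP3 receptor is known to restrain lipolysis, and macrophages and mast cells are known sources of prostaglandin D2 and leukotrienes.

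The medians of the 6 arrays lay between 123 and 127.5 in intensity. rAAV-Lmo3 array 1 and rAAV-YFP array 2 stood apart. Their mean r to all other arrays was 0.986 and 0.988, where the remaining arrays reached 0.990 to 0.991. rAAV-Lmo3 array 1 was the array farthest from its group mean for 6 of the 9 measured genes. The probe set of Lmo3 itself was dim on every array, with intensities of 24, 26 and 24 in rAAV-Lmo3 eWAT and 25, 24 and 24 in rAAV-YFP eWAT, so it gave no check of the labels. Adipocyte markers were bright, and all 8 of them, Adipoq, Plin1 and Lep among them, passed the limit for dim genes.

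Across the 8 tested genes no common direction was seen. The log2 difference, rAAV-Lmo3 minus rAAV-YFP, was above 0 for 4 genes and below 0 for 4, with a median of -0.02, against a median of 0.0008 over all 11963 tested genes, of which 50.3% lay above 0. At an adjusted p under 0.05 (limma, Benjamini-Hochberg over all tested genes) 0 of the 8 genes were called, and the background was 0 of 11963 genes, or 0%. At an unadjusted p under 0.05 there was 1 of 8, Ephx2, beside a background of 4.66% (2.27% higher and 2.4% lower in rAAV-Lmo3 eWAT). These were 271 higher and 287 lower genes, and with each array centred on its median they became 317 higher and 216 lower. The values of the rAAV-Lmo3 and rAAV-YFP groups did not overlap for 1 of 8, again Ephx2, beside 10.5% of all tested genes (4.53% higher and 5.95% lower in rAAV-Lmo3 eWAT). Because the difference of Ephx2 was known when the set was chosen, nothing is read from either count. The plot of log2 intensities by array shows all 9 genes.

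**Figure D1:**
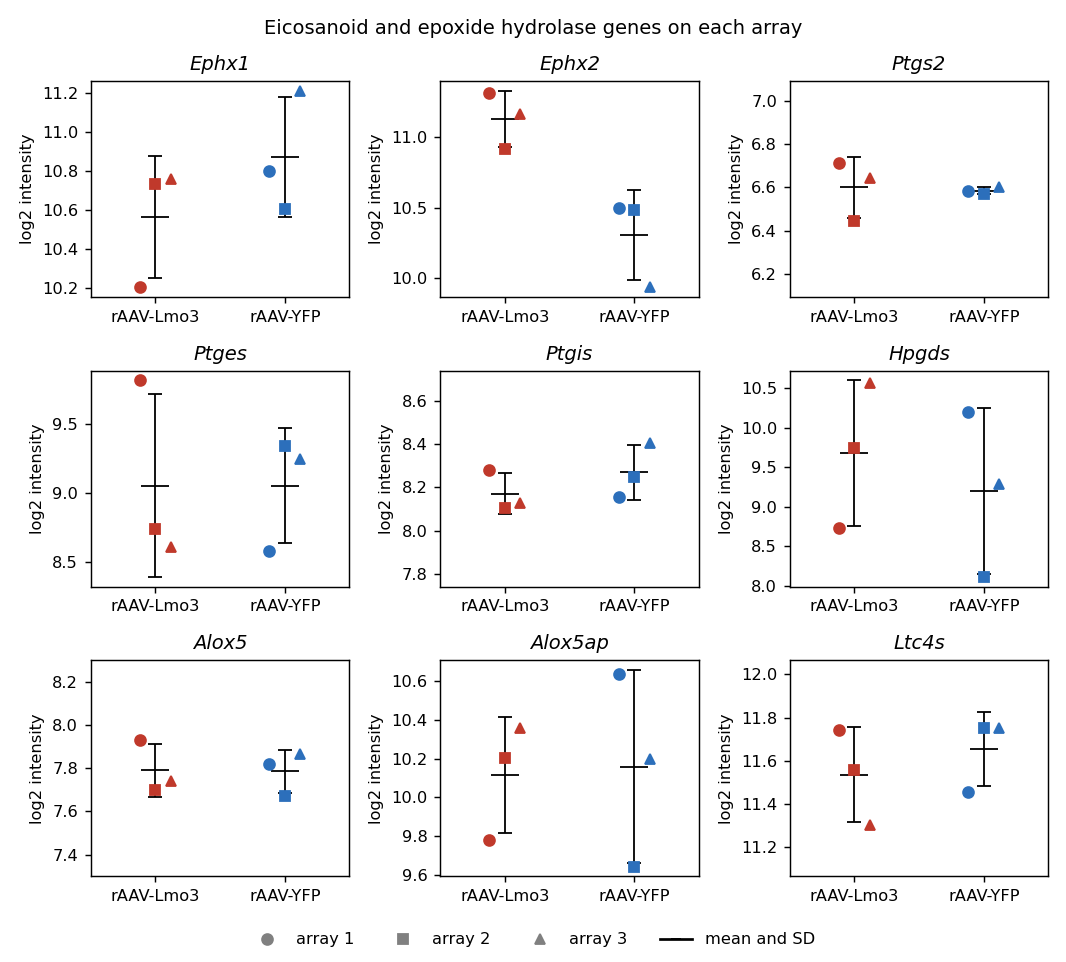
Log2 intensity of each measured gene on the 3 rAAV-Lmo3 arrays (red) and the 3 rAAV-YFP arrays (blue), with the array number as the symbol and the group mean and SD in black; the vertical scales differ between panels. The groups separate for Ephx2, overlap for the other 8 genes, and lie farthest apart within each group for Hpgds.

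Ephx2 encodes soluble epoxide hydrolase, which turns epoxides of arachidonic acid into diols. Its intensity was 2538, 1932 and 2291 on the rAAV-Lmo3 arrays, against 1443, 1434 and 979 on the rAAV-YFP arrays. All 3 rAAV-Lmo3 arrays lay above all 3 rAAV-YFP arrays, and rAAV-YFP array 3 was the lowest. The difference was 0.82 ± 0.18 on the log2 scale (SE), or 1.77-fold. It was 0.82 without the arrays that stood apart and between 0.64 and 0.93 when any 1 array was left out. It was smallest without rAAV-YFP array 3. Over all tested genes, 27 had a difference at least as large in size, Ephx2 included.

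Ephx1 encodes microsomal epoxide hydrolase, an enzyme of the endoplasmic reticulum that acts on drugs as well as on fatty acid epoxides. It read 1180, 1700 and 1733 in rAAV-Lmo3 eWAT and 1783, 1557 and 2369 in rAAV-YFP eWAT. The groups overlapped, with rAAV-Lmo3 array 1 lowest and rAAV-YFP array 3 highest. The difference was -0.31 ± 0.21 (95% interval -0.80 to 0.19), and the exact two-sided permutation p over the 3 and 3 arrays was 0.4, where 0.1 is the smallest that this design allows. It was below 0 whichever array was left out, between -0.44 and -0.13, the value nearest 0 being that without rAAV-Lmo3 array 1. On the array where Ephx1 was lowest, Ephx2 was highest, and on the array where Ephx1 was highest, Ephx2 was lowest (Pearson's r = -0.80, Spearman's rho = -0.60 over 6 arrays, given as a description). rAAV-YFP array 3 also had the highest summed intensity of 6 mesothelial markers, which was 987, 798 and 1113 in rAAV-Lmo3 eWAT and 839, 1074 and 2063 in rAAV-YFP eWAT. In whole tissue, fewer cells of a type and less RNA per cell cannot be told apart. Ephx1 had r = 0.62 to these markers (exact p = 0.21, rho = 0.37, exact p = 0.50) and r = 0.77 to 6 fibroblast and progenitor markers (exact p = 0.025, rho = 0.77, exact p = 0.10). Adjusted over the 99 relations described further on, the p of r was 0.60 for the mesothelial and 0.25 for the fibroblast list, and that of rho was 0.85 and 0.46. Without the 2 arrays farthest from each list's median r was -0.12 and 0.16, so both relations rested on those arrays. The fibroblast and progenitor sum was 5440, 8373 and 8025 in rAAV-Lmo3 eWAT and 7920, 5810 and 7401 in rAAV-YFP eWAT, lowest on rAAV-Lmo3 array 1 like Ephx1. The part of either cell type in the values of Ephx1 and Ephx2 was not tested.

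The cyclooxygenase step could not be followed on these arrays. Ptgs2 encodes the inducible cyclooxygenase. Its probe set read 105, 87 and 100 in rAAV-Lmo3 eWAT and 96, 95 and 97 in rAAV-YFP eWAT, all below the limit of 114 in mean intensity. The rAAV-YFP values lay within the span of the rAAV-Lmo3 values, and the difference of 0.02 was not tested. Ptgs1, the constitutive cyclooxygenase, was not analysed here.

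Among the terminal prostanoid synthases, Ptges and Hpgds varied widely from array to array and Ptgis did not. Ptges encodes microsomal prostaglandin E synthase, which works downstream of the cyclooxygenases. It read 902, 426 and 390 in rAAV-Lmo3 eWAT and 381, 647 and 607 in rAAV-YFP eWAT. The highest value of all was on rAAV-Lmo3 array 1, while rAAV-Lmo3 arrays 2 and 3 and rAAV-YFP array 1 formed the low end. The difference was 0.0007 ± 0.36 (95% interval -0.85 to 0.85, exact p = 1), and it turned to -0.38 without rAAV-Lmo3 array 1 and to -0.24 without both arrays that stood apart. Ptgis encodes prostacyclin synthase, an enzyme known from vessel walls. It read 311, 275 and 280 in rAAV-Lmo3 eWAT and 285, 304 and 339 in rAAV-YFP eWAT, values that overlapped. The difference was -0.10 ± 0.10 (95% interval -0.33 to 0.14, exact p = 0.4), and it moved to -0.03 without rAAV-YFP array 3, where Ptgis was highest. That array also had the high mesothelial sum, and Ptgis had r = 0.84 to the mesothelial markers (exact p = 0.036, adjusted to 0.25; rho = 0.60, exact p = 0.24, adjusted to 0.54). Without rAAV-YFP array 3 and rAAV-Lmo3 array 2 this r was 0.14. To the eosinophil markers, of which 1 of 4 passed the dim limit, Ptgis had r = -0.81 (exact p = 0.056, adjusted to 0.28). Its rho to them was -0.94 (exact p = 0.017, adjusted to 0.165), and r was -0.996 without the arrays farthest from their median. To the neutrophil markers, of which 2 of 6 passed, its rho was -0.83 (exact p = 0.058, adjusted to 0.30). The part of lining cells or of any other cell type was not tested.

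Hpgds encodes the hematopoietic prostaglandin D synthase of macrophages, mast cells and other immune cells. Its intensity was 423, 857 and 1516 in rAAV-Lmo3 eWAT and 1181, 276 and 627 in rAAV-YFP eWAT. The arrays of the 2 groups alternated in order, from rAAV-Lmo3 array 3 at the top to rAAV-YFP array 2 at the bottom. Its range over the 6 arrays, 2.46 on the log2 scale, was the widest of the 9 genes, followed by 1.37 for Ephx2 and 1.24 for Ptges. The difference of 0.48 ± 0.63 (95% interval -1.02 to 1.97, exact p = 0.6) was smaller than its SE. It was 0.95 without rAAV-Lmo3 array 1 and 0.03 without rAAV-Lmo3 array 3, and 0.98 without rAAV-YFP array 1 and -0.07 without rAAV-YFP array 2, so single pools of both groups moved it by about as much as its size.

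The leukotriene genes gave differences close to 0, with intervals that differed in width. Alox5 encodes 5-lipoxygenase, the first enzyme of leukotriene synthesis. It read 244, 208 and 214 in rAAV-Lmo3 eWAT and 226, 204 and 233 in rAAV-YFP eWAT, a spread that left the groups overlapping. The difference was 0.005 ± 0.10 (95% interval -0.23 to 0.24, exact p = 1) and was -0.12 without the arrays that stood apart. Alox5ap encodes FLAP, the membrane protein that presents arachidonic acid to 5-lipoxygenase. It read 881, 1180 and 1313 in rAAV-Lmo3 eWAT and 1590, 800 and 1175 in rAAV-YFP eWAT, so that the rAAV-YFP arrays held both the highest and the lowest value. Its difference was -0.04 ± 0.27 (95% interval -0.68 to 0.59, exact p = 1), and without 1 array it moved between -0.30 (rAAV-YFP array 2 left out) and 0.19 (rAAV-YFP array 1 left out). Ltc4s encodes leukotriene C4 synthase, the conjugating enzyme. It read 3426, 3015 and 2529 in rAAV-Lmo3 eWAT and 2809, 3454 and 3452 in rAAV-YFP eWAT. The highest rAAV-Lmo3 value fell within the rAAV-YFP range, and the difference was -0.12 ± 0.14 (95% interval -0.46 to 0.22, exact p = 0.5). It stayed below 0 whichever array was left out, from -0.22 without rAAV-Lmo3 array 1 to -0.004 without rAAV-Lmo3 array 3. The adjusted p of the 8 tested genes ranged from 0.97 to 1.00 in the limma fit, and that of Ephx2 was 0.97.

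**Figure D2:**
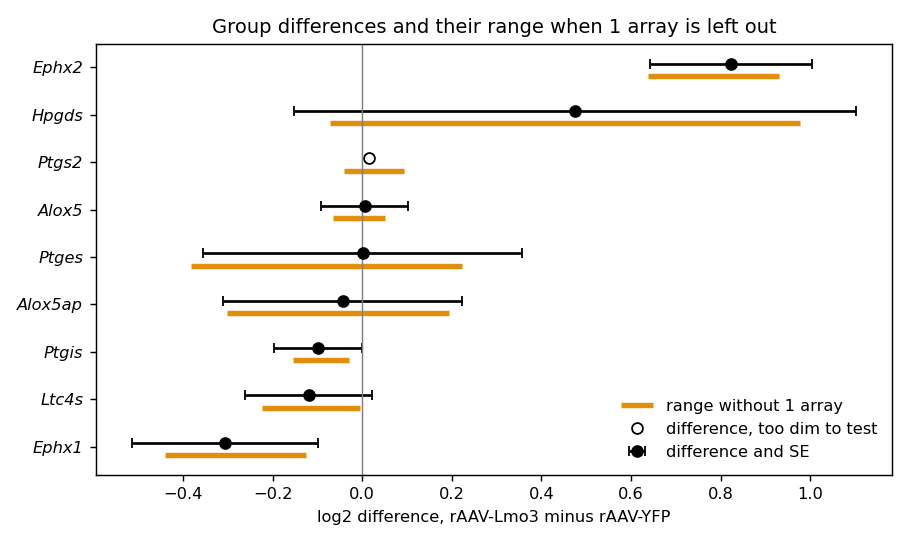
Log2 difference, rAAV-Lmo3 minus rAAV-YFP, with its SE (black) and the range of the difference when any 1 of the 6 arrays was left out (orange); Ptgs2, too dim to test, has an open symbol. Ephx2 stays at 0.64 or above in every case, Ephx1, Ptgis and Ltc4s stay below 0, and the ranges of Hpgds, Ptges, Alox5, Alox5ap and Ptgs2 reach both sides of 0.

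Marker levels of the cell types in the tissue were set beside the genes from pool to pool. The summed intensity of 10 macrophage markers, among them Adgre1, Csf1r and Cd68, was 9105, 15035 and 16857 in rAAV-Lmo3 eWAT and 17650, 8138 and 12573 in rAAV-YFP eWAT, so it was lowest on the arrays that stood apart. Not all 10 followed it. Cd163 read 274, 211 and 251 in rAAV-Lmo3 eWAT and 261, 305 and 291 in rAAV-YFP eWAT. Mertk read 573, 623 and 555 in rAAV-Lmo3 eWAT and 771, 715 and 625 in rAAV-YFP eWAT. The summed intensity of 8 adipocyte markers was 69914, 62919 and 57794 in rAAV-Lmo3 eWAT and 61122, 72233 and 66293 in rAAV-YFP eWAT, with its highest values on the arrays that stood apart. Not all 8 followed it either. Adipoq, Plin1 and Retn had their highest values on both of those arrays, and Lipe and Fabp4 were highest on rAAV-YFP array 2 only. Lep read 6681, 9079 and 7709 in rAAV-Lmo3 eWAT and 9547, 9219 and 9439 in rAAV-YFP eWAT. Pnpla2 read 5549, 5762 and 5662 in rAAV-Lmo3 eWAT and 5703, 6780 and 5470 in rAAV-YFP eWAT. Cidec read 11937, 11748 and 11048 in rAAV-Lmo3 eWAT and 10565, 11194 and 12146 in rAAV-YFP eWAT. All 10 macrophage and all 8 adipocyte markers passed the limit for dim genes.

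Relations of the 9 measured genes to 11 marker lists were computed as 99 correlations over the 6 arrays, each list taken as the mean of its log2 values centred per gene. At an adjusted p under 0.05, Pearson's r passed for Hpgds with the adipocyte markers and for Alox5ap with the macrophage and lipid-associated macrophage markers. Each of these had an exact permutation p of 0.0014, the smallest that 6 arrays allow, and ties at that value brought the adjusted p to 0.046. Both macrophage lists ordered the arrays alike, so they are not separate results. No Spearman's rho passed (smallest adjusted p 0.092, exact permutation tests). Even a rho of 1 or -1 has an exact p of 0.0028 with 6 arrays and adjusted to 0.092. That outcome was close to fixed in advance, and nothing is read from it. Hpgds had a Pearson's r of 0.98 to the macrophage markers (exact permutation p = 0.0028, adjusted over the 99 to 0.055; Spearman's rho = 0.94, p = 0.017, adjusted to 0.16). It ran opposite to the adipocyte markers (r = -0.99, exact p = 0.0014, adjusted to 0.046; rho = -1, exact p = 0.0028, adjusted to 0.092). Alox5ap had the same order of arrays as the macrophage markers (r = 0.96, exact p = 0.0014, adjusted to 0.046; rho = 1.00, exact p = 0.0028, adjusted to 0.092). Without rAAV-Lmo3 array 1 and rAAV-YFP array 2, the arrays farthest from the median of the macrophage level, r was 0.94 for Hpgds and 0.78 for Alox5ap. After each group's mean had been taken off, it was 0.99 for both genes. The 6 fibroblast and progenitor markers also ran with both genes, at r = 0.88 for Hpgds (exact p = 0.022, adjusted to 0.24; rho = 0.89, exact p = 0.033, adjusted to 0.22) and r = 0.91 for Alox5ap (exact p = 0.017, adjusted to 0.24; rho = 0.83, exact p = 0.058, adjusted to 0.30). Without those same arrays r to this list was 0.53 for Hpgds and 0.52 for Alox5ap, and after group means 0.93 and 0.91.

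For Ptges and Ltc4s no relation passed the adjustment over the 99. To the adipocyte markers they had r = 0.82 (exact p = 0.043, adjusted to 0.25) with rho = 0.89 (exact p = 0.033, adjusted to 0.22) for Ptges, and r = 0.93 (exact p = 0.013, adjusted to 0.21) with rho = 0.94 (exact p = 0.017, adjusted to 0.16) for Ltc4s. Leaving out rAAV-YFP array 2 and rAAV-Lmo3 array 3, which lay farthest from the median adipocyte level, gave r = 0.99 for Ptges and 0.94 for Ltc4s. Ptges lay as far or farther on the negative side of other lists, with r = -0.87 to the lipid-associated macrophage and -0.86 to the macrophage markers (exact p = 0.031 each, adjusted to 0.25; rho = -0.94 each, exact p = 0.017, adjusted to 0.16). To the eosinophil markers, of which 1 of 4 passed the dim limit, its r was -0.84 (exact p = 0.039, adjusted to 0.25; rho = -0.71, exact p = 0.14, adjusted to 0.50), and to the fibroblast and progenitor markers -0.83 (exact p = 0.019, adjusted to 0.24; rho = -0.89, exact p = 0.033, adjusted to 0.22). Without the 2 arrays farthest from each list's median these were -0.93, -0.97, -0.81 and -0.13. Ltc4s had r = -0.85 to the lipid-associated macrophage and -0.84 to the macrophage markers (exact p = 0.046 each, adjusted to 0.25). Its rho was -0.89 to each (exact p = 0.033, adjusted to 0.22). With the 2 arrays farthest from each list's median left out, its r was -0.89 and -0.92. Between the genes themselves, given as descriptions over the 6 arrays, r was 0.92 for Hpgds with Alox5ap and 0.85 for Ptges with Ltc4s, against -0.90 for Hpgds with Ltc4s and -0.84 for Hpgds with Ptges. Ephx2 had r = 0.05 to the macrophage markers (exact p = 0.92, adjusted to 0.96; rho = 0.14, exact p = 0.80, adjusted to 1.00) and r = -0.25 to the adipocyte markers (exact p = 0.64, adjusted to 0.85; rho = -0.26, exact p = 0.66, adjusted to 0.98). Without the arrays farthest from the median of each list these became 0.70 and 0.28. The r of Ephx2 lay farther from 0 for the platelet and megakaryocyte markers, at 0.71 (exact p = 0.12, adjusted to 0.48). For the mesothelial markers it was -0.64 (exact p = 0.17, adjusted to 0.60). With the arrays farthest from each list's median left out, these were 0.21 and 0.32. The rho of Ephx2 was -0.77 to the endothelial (exact p = 0.10, adjusted to 0.46) and 0.66 to the mast cell markers (exact p = 0.175, adjusted to 0.54). Its r to these lists was -0.50 and 0.50, and became -0.27 and 0.88 without the arrays farthest from each list's median. To the eosinophil markers r was 0.08, and 0.92 with such arrays left out.

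Mast cells, another source of Hpgds and leukotrienes, had few bright markers. Of 9 mast cell markers, 5 passed the limit for dim genes, and the receptor subunits Fcer1a and Ms4a2 read 25 to 38 on every array. The summed intensity of the list was 1225, 916 and 1403 in rAAV-Lmo3 eWAT and 1272, 940 and 1002 in rAAV-YFP eWAT. Hpgds had r = 0.53 to it (exact p = 0.27, adjusted to 0.60) with rho = 0.60 (exact p = 0.24, adjusted to 0.54), and 0.41 without the arrays farthest from its median. The part of any cell type in these differences was not tested.

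**Figure D3:**
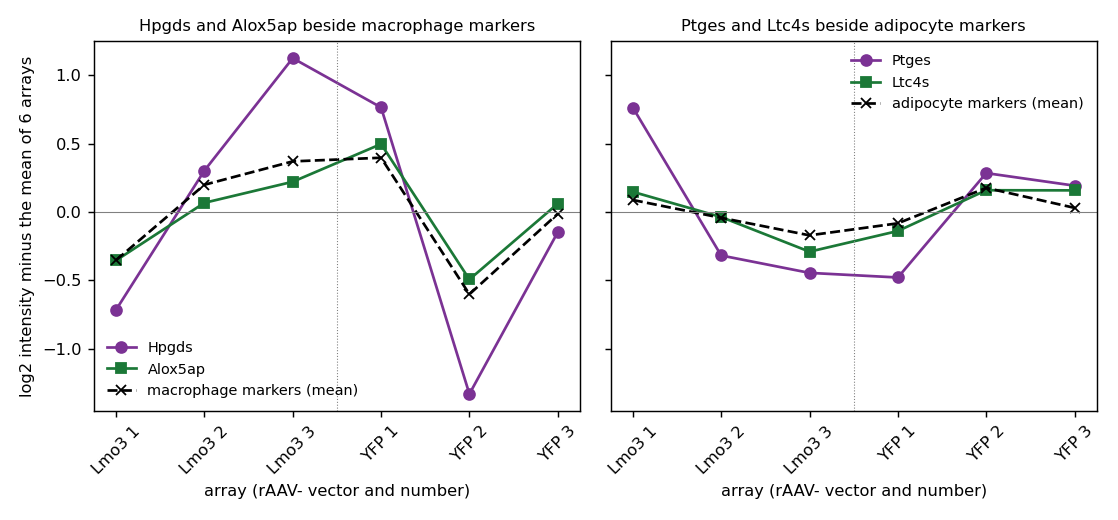
Log2 intensity minus the mean of the 6 arrays for Hpgds and Alox5ap beside the mean of 10 macrophage markers (left), and for Ptges and Ltc4s beside the mean of 8 adipocyte markers (right), with the 3 rAAV-Lmo3 arrays left of the dotted line and the 3 rAAV-YFP arrays right of it. Hpgds and Alox5ap dip with the macrophage markers on rAAV-Lmo3 array 1 and rAAV-YFP array 2, where Ptges and Ltc4s are high.

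Hpgds, Ptges and Ltc4s each had a RefSeq promoter window (GRCm38.p6), which is printed because Ptges and Ltc4s ran opposite to Hpgds over the 6 arrays. Each window is the 250 bases before the start of the gene, read 5′ to 3′ on the strand of the gene, and capitals mark the GC box GGGCGG, the only one of 5 searched motifs that any of these windows held.
Hpgds, chr6:65144731-65144980, strand -: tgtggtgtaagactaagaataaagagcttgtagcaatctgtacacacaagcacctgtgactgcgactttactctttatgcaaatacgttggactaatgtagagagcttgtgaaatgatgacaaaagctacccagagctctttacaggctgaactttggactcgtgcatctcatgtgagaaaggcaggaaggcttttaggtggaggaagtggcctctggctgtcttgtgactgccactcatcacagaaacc
Ptges, chr2:30903298-30903547, strand -: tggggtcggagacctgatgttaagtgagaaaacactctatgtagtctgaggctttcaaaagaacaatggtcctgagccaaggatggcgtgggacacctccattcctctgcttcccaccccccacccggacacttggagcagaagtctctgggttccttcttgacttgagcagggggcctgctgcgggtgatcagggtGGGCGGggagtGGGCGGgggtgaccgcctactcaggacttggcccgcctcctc
Ltc4s, chr11:50238533-50238782, strand -: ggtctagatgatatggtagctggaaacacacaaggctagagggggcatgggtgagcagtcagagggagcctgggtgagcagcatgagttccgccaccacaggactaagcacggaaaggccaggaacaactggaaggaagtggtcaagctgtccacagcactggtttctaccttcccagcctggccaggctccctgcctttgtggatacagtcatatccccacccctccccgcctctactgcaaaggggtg
Ptges held the GC box 2 times, at 53 and 42 bases before the start, and the windows of Hpgds and Ltc4s held none of the motifs. Over all 7 genes of the set with a window, GGGCGG was found in 3 (Ptges, Alox5 and Ptgs2), beside 32.7% of all 32851 windows of that length. The TATA box TATAAA was found in 1 (Ephx1, 214 bases before its start), beside 12.4% of all windows. The nuclear receptor half-site AGGTCA, the cAMP response element TGACGTCA and the E-box CACGTG were found in 0 of 7, beside 14.0%, 1.55% and 6.02% of all windows. Both strands were searched. Such a match is a match of letters only.

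The genes most like Hpgds over the 6 arrays, among 11962 other tested genes, were Trem2 (r = 0.998), a receptor of lipid-associated macrophages, followed by BC028528, Sec11c, Stap1 and Rab31, each at r = 0.996 or above. As many as 345 genes had r above 0.95 to Hpgds, and 134 to Ptges. Those most like Ptges were Gimap6 (r = 0.998), Cyb5a, Rhoq, Slc2a4 (which encodes the insulin-responsive glucose transporter GLUT4) and Ivd, a dehydrogenase of leucine breakdown, at 0.992 or above. For Ephx2 the number above 0.95 was 11, and the nearest were 3110082I17Rik (r = 0.984), Mgat4b (0.983), Gpr135 (0.976), Lipt2 (0.975) and Slc20a2 (0.971). These values describe 6 points that share group and array.

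Other genes of the pathway were listed by role, 114 symbols in all, of which 99 were measured and 52 tested. None was called at an adjusted p under 0.05 (background 0%). At an unadjusted p under 0.05, 5 of 52 were higher in rAAV-Lmo3 eWAT (9.62%, beside 2.27% of all tested genes) and 0 were lower (beside 2.4%). The groups did not overlap for 5 in the higher and 2 in the lower direction, or 13.5%, beside 10.5% of all tested genes. The difference was above 0 for 33 and below 0 for 19, with a median of 0.05. This list had been drawn up with results of these arrays known, so its counts are descriptions.

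Of the enzymes that release fatty acids, 13 were tested. Pla2g2e, a secreted phospholipase A2 known from fat, read 400, 530 and 445 in rAAV-Lmo3 eWAT and 294, 221 and 395 in rAAV-YFP eWAT. The lowest rAAV-Lmo3 value lay just above the highest rAAV-YFP value, and the difference was 0.63 ± 0.22 (adjusted p = 0.97, limma). The brightest of the group, Mgll (monoacylglycerol lipase), differed by -0.004 ± 0.13, and Dagla (a diacylglycerol lipase) by -0.23 ± 0.11 with groups that did not overlap.

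Of 6 tested terminal synthases, 2 were higher at the unadjusted level (33.3%, beside 2.27% of all tested genes, in a list drawn up with results known). Ptges2, a membrane-associated prostaglandin E synthase, read 288, 212 and 191 in rAAV-Lmo3 eWAT and 168, 174 and 170 in rAAV-YFP eWAT. Prxl2b, known as prostamide/prostaglandin F synthase, read 835, 922 and 826 in rAAV-Lmo3 eWAT and 529, 574 and 785 in rAAV-YFP eWAT. In both genes every rAAV-Lmo3 array lay above every rAAV-YFP array. The differences were 0.41 ± 0.15 for Ptges2 and 0.47 ± 0.16 for Prxl2b (adjusted p = 0.97 each, limma), and that of Ptges2 shrank to 0.24 without rAAV-Lmo3 array 1. Ptges3, the cytosolic synthase and the brightest of the group, differed by 0.05 ± 0.09, so the 3 prostaglandin E synthases Ptges, Ptges2 and Ptges3 gave 0.0007, 0.41 and 0.05. Whether these 3 differ from each other was not tested. Tbxas1, the thromboxane synthase, named here after its values were seen, read 361, 771 and 795 in rAAV-Lmo3 eWAT and 906, 327 and 568 in rAAV-YFP eWAT, low on the same arrays as the macrophage markers.

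In prostaglandin breakdown and transport, 0 of 10 tested genes were called at the unadjusted level, beside 4.66% of all tested genes. Hpgd, the dehydrogenase that starts prostaglandin breakdown, differed by 0.30 ± 0.17 (0.14 without rAAV-Lmo3 array 3 and 0.41 without rAAV-Lmo3 array 2), and Abcc4, an exporter of prostaglandins, by -0.14 ± 0.07 with groups that did not overlap. Of 7 tested genes of leukotriene processing, 1 was higher at the unadjusted level (14.3%, beside 2.27% of all tested genes). This was Mgst2, a microsomal glutathione transferase that can also make leukotriene C4, at 514, 364 and 576 in rAAV-Lmo3 eWAT and 281, 288 and 256 in rAAV-YFP eWAT. Its difference of 0.79 ± 0.17 (adjusted p = 0.97, limma) was already known when the list was drawn up and stands beside the -0.12 ± 0.14 of Ltc4s. Mgst3, the brightest of that group, differed by 0.04 ± 0.37, and Lta4h, which makes leukotriene B4, by 0.14 ± 0.08.

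The enzymes that make epoxides for Ephx1 and Ephx2 were mostly too dim to follow. Of 20 measured cytochrome P450 epoxygenases, 3 passed the limit, Cyp2j6, Cyp2j9 and Cyp2s1, with differences between -0.10 and -0.003. Cyp2j9, the brightest, read 429, 315 and 382 in rAAV-Lmo3 eWAT and 365, 436 and 400 in rAAV-YFP eWAT, with groups that overlapped. Of 11 measured omega-hydroxylases 3 passed, with Cyp4f13 the brightest at 0.08 ± 0.14. All 6 measured lipoxygenases other than Alox5, Alox15 among them, were below the limit.

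Among 7 tested prostanoid receptors, Ptger3, the EP3 receptor, was both the brightest and the 1 called at the unadjusted level (14.3%, beside 2.27% of all tested genes). It read 1876, 1411 and 1443 in rAAV-Lmo3 eWAT and 845, 1216 and 1332 in rAAV-YFP eWAT, with no overlap and the lowest value on rAAV-YFP array 1. The difference was 0.49 ± 0.20 (adjusted p = 0.97, limma) and fell to 0.30 without that array. The other 6 receptors lay between -0.11 and 0.22. Of 2 tested leukotriene and lipoxin receptors, Cysltr1 was the brighter, at 0.13 ± 0.25.

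**Figure D4:**
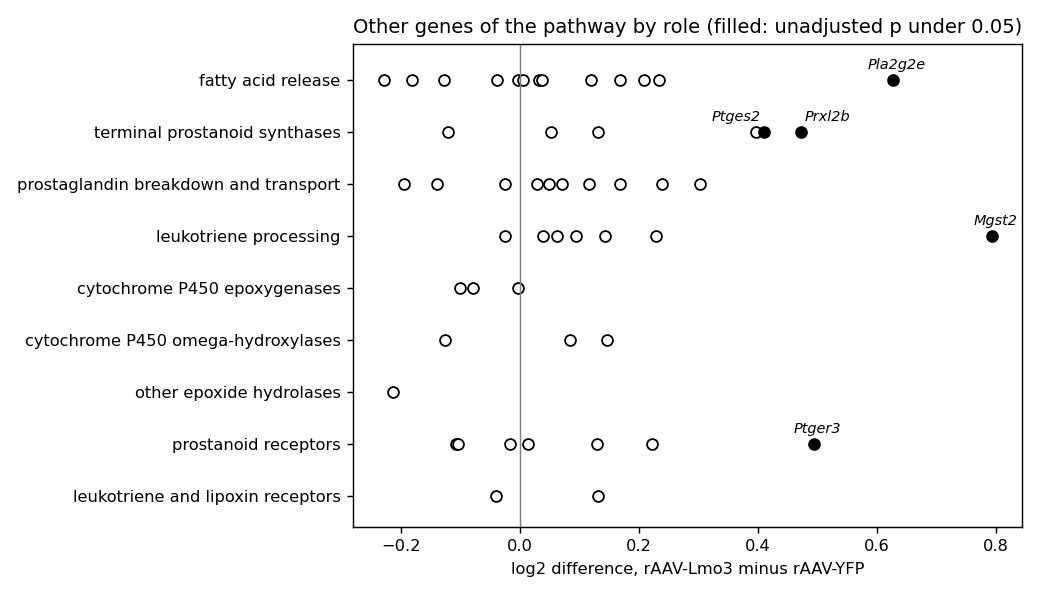
Log2 difference, rAAV-Lmo3 minus rAAV-YFP, of the tested genes of the pathway outside the 10 by role, 1 point a gene, with filled points at an unadjusted p under 0.05. All 5 filled points, Pla2g2e, Ptges2, Prxl2b, Mgst2 and Ptger3, lie above 0, and none has an adjusted p under 0.05.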

How the data were processed

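The deposited values are intensities per probe set that the authors made by RMA in Affymetrix Expression Console 1.1 (per the labels), on a linear scale rounded to whole numbers. The test plan had assumed log2 values, so they were log-transformed here (log2). Quantile normalization within RMA sets values on an array relative to each other. Arrays give no counts, so their number limits the precision.

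Of 35556 probe sets, 21789 were annotated with 1 gene symbol, 1621 with several and 12146 with none, and 19919 of 19938 single symbols stood in RefSeq's gene table (GRCm38.p6). The brightest probe set per symbol was kept and the dimmest 40% of genes (7975, mean log2 intensity under 6.83) were not tested. For the other 11963 genes, R 4.3.3 and limma 3.58.1 (lmFit, then eBayes with no covariate) gave two-sided tests, and p-values were adjusted over all of them at a threshold of 0.05. SEs and 95% intervals are those of the moderated difference. Single differences and correlations were also given exact permutation tests. The steps were tested on simulated data first.

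The genes and the lists were chosen with earlier results of these data known. Named genes are the 10 of the set, in each role those that passed an unadjusted p of 0.05 without overlap of the groups, the brightest tested gene of each role, and for Ephx2 and the 2 other widest-ranging genes of the set the 5 with the highest r. Dagla, Abcc4, Tbxas1, Cyp2j6, Cyp2s1 and Alox15 were added to these with their values in view. Alternatives were another scaling, filter, prior, probe set rule or test, array weights, a replicate block and leaving out arrays. Marker lists covered adipocytes, macrophages, lipid-associated macrophages, mast cells, neutrophils, eosinophils, endothelium, mesothelium, fibroblasts, smooth muscle and platelets.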

Additional observations from a re-analysis of the deposited data

How the results depend on the processing

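At an adjusted p under 0.05, 0 genes were called by limma or under any of the 16 alternatives, the methods' t-test being one of them, against 558 genes at an unadjusted p under 0.05 with limma and 555 with the t-test. The unadjusted count was 840 with no filter on dim genes and 453 with the replicate block, and ranged from 263 (without rAAV-YFP array 2) to 684 (without rAAV-YFP array 3) when 1 array was left out. Same-numbered arrays correlated at -0.55, -0.40 and 0.26 after group means were taken off, so the numbers were not taken to pair the pools. Genes whose groups do not overlap numbered 1254, 1794 to 2793 without 1 array and 3610 without both arrays that stood apart, since fewer arrays have to separate.

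Ephx2, Ephx1, Ptgis and Ltc4s kept their direction under all alternatives. Ptgs2 turned to -0.049 without both arrays that stood apart, with -0.042 to 0.094 without 1 array. Ptges turned to -0.015 with a second quantile normalization, -0.24 with array weights and -0.24 without both arrays, with -0.38 to 0.22 without 1. Alox5 turned to -0.077 with array weights and -0.12 without both arrays, with -0.065 to 0.051 without 1. Hpgds ranged from -0.071 to 0.98 and Alox5ap from -0.30 to 0.19 without 1 array. Mgll turned to 0.019 with centred arrays, 0.070 with array weights and 0.075 without both arrays, with -0.078 to 0.11 without 1. Mgst3 turned to -0.0027 with a second quantile normalization, -0.10 with array weights and -0.012 without both arrays, with -0.31 to 0.34 without 1. Ptges3 turned to -0.0086 without both arrays. Cyp2j9 ranged from -0.20 to 0.020, Cyp4f13 from -0.012 to 0.20 and Cysltr1 from -0.081 to 0.36 without 1 array. With the replicate block the unadjusted call in limma was lost for Pla2g2e at 0.63 and Ptger3 at 0.49, and without both arrays for Prxl2b at 0.44 and Ptger3 at 0.43. Without 1 array Pla2g2e kept it in 2 of 6 fits, Ptges2 and Prxl2b in 3, Ptger3 in 1 and Mgst2 in 6. The causes were not tested.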

Other observations

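Further members of marker lists that were compared with the 9 measured genes gave these values. The summed intensity of 7 measured lipid-associated macrophage markers was 21320, 29025 and 32017 in rAAV-Lmo3 eWAT and 34686, 19181 and 25865 in rAAV-YFP eWAT, low on rAAV-Lmo3 array 1 and rAAV-YFP array 2 like the macrophage markers. Lpl, the brightest of the 7, stayed between 11028 and 12504 on all arrays and made up a large part of each sum. Of the neutrophil markers 2 of 6 and of the eosinophil markers 1 of 4 passed the limit for dim genes, with sums of 544, 711 and 680 in rAAV-Lmo3 eWAT against 541, 509 and 570 in rAAV-YFP eWAT for neutrophils, and 287, 342 and 322 in rAAV-Lmo3 eWAT against 332, 313 and 306 in rAAV-YFP eWAT for eosinophils. The sums of the endothelial markers were 7998, 9737 and 8778 in rAAV-Lmo3 eWAT and 8736, 11089 and 10055 in rAAV-YFP eWAT. Those of fibroblast and progenitor markers were 5440, 8373 and 8025 in rAAV-Lmo3 eWAT and 7920, 5810 and 7401 in rAAV-YFP eWAT, those of smooth muscle 3344, 4650 and 4274 in rAAV-Lmo3 eWAT and 4190, 4491 and 5211 in rAAV-YFP eWAT, and those of platelets 984, 820 and 1137 in rAAV-Lmo3 eWAT and 972, 888 and 772 in rAAV-YFP eWAT. For the neutrophil list the lowest rAAV-Lmo3 value lay within the rAAV-YFP range, and all the other lists overlapped as well.

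Dpep2, a dipeptidase that turns leukotriene D4 into leukotriene E4, and Ptger4, the EP4 receptor of prostaglandin E2, were named with their values in view. Dpep2 read 320, 666 and 850 in rAAV-Lmo3 eWAT and 827, 253 and 539 in rAAV-YFP eWAT, with its lowest values on the arrays where Hpgds was lowest and a difference of 0.23 ± 0.51. Ptger4 read 181, 306 and 360 in rAAV-Lmo3 eWAT and 271, 165 and 281 in rAAV-YFP eWAT, with a difference of 0.22 ± 0.31 and low values on the same arrays. Neither difference passed the test.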
